A study of Mus musculus with 9 samples.

Results

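Lysosome and autophagy genes were followed in mouse brain tumor stem cells (BTSC) in which Gpd1, the gene of cytosolic glycerol-3-phosphate dehydrogenase, had been targeted. The set was a chosen list of 40 genes: lysosomal hydrolases, lysosomal membrane and transport proteins, the transcription factor genes Tfeb and Tfe3, and autophagy genes. All 40 were among the 21899 genes of the table, and 39 had a mean normalized read count of at least 10 over the 9 libraries, the level needed to enter the tests on 15827 genes. The exception was Ctsz, the gene of a lysosomal carboxypeptidase, with 2 to 10 normalized reads per library.

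Poly(A) RNA was sequenced from 3 libraries of control BTSC, 3 of BTSC given Cas9 with sgRNA1 (sgRNA1 KO) and 3 of BTSC given Cas9 with sgRNA2 (sgRNA2 KO). Per the labels, the KO cells had been transfected with the CRISPR vector lentiCRISPv2 by lipofection, selected with puromycin and expanded as single-cell colonies that were checked by western blot and DNA sequencing. The labels do not say whether control cells were transfected, selected or picked, nor that the libraries of a group were separate cultures, so the p-values measure the spread between these libraries only. That spread was wider in KO: the median SD of log2 values of the 39 tested genes was 0.048 in control and 0.308 in KO. Over all genes tested it was 0.086 and 0.364, and the main fits used 1 variance per gene for all groups. Normalized totals ran from 39781901 to 42975283 per library. Every KO value of Gpd1 lay below every control. In limma Gpd1 did not pass an adjusted p of 0.05 with the guides pooled (log2 fold change -1.99, adjusted p = 0.0516). It passed with sgRNA1 (-2.50, 0.0391) and not with sgRNA2 (-1.47, 0.203). Gpd1 stood at 5.21% to 82.6% of the control mean in the KO libraries, and the 82.6% belonged to sgRNA1 KO replicate 3. That library and sgRNA2 KO replicate 1 lay nearest the controls across genes (r from 0.962 to 0.972, against 0.909 to 0.945 for the other 4 KO libraries). Of the markers of the labelled cell type, Sox2, Olig2, Fabp7, Nes and Vim were abundant in every library, while Prom1 had at most 31 normalized reads. The 10 markers summed to 346022 to 390088 in control and 231602 to 325712 in KO: Nes (log2 fold change -1.36), Vim (-0.93) and Cd44 (-1.51) fell, Sox2 (0.94) and Pax6 (0.57) rose, and their part in the results below was not tested.

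The lysosome is the acidic compartment in which cells digest protein, sugar chains and lipid taken up from outside or delivered from within. Autophagy is the delivery from within: a membrane grows around cytoplasm, the Atg8 proteins (LC3 and GABARAP) are coupled to it, and the closed vesicle fuses with the lysosome. The transcription factors TFEB and TFE3 are known for switching on lysosomal genes together through a short E-box sequence in their promoters, and the kinase mTORC1 at the lysosomal surface is known to keep them in the cytoplasm when nutrients are plentiful.

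With both guides pooled, the 6 KO libraries were set against the 3 controls to ask which of these genes differed. In limma, 28 of the 39 tested genes rose and 0 fell at an adjusted p of 0.05, while 11 did not pass. Of all genes tested, 39.3% were called: 19.1% rose and 20.2% fell, so the risen share of 71.8% was well above the background. The list was chosen with earlier results of these data known, so this excess is a description and not a test. The median log2 fold change was 0.73 for the 39 genes and -0.01 for all genes tested, and 36 of the 39 values were above 0. Every KO library lay above every control for 29 of the 39, against 21.1% of all genes tested, and below every control for 2, against 23.8%. A rise of at least 2-fold that passed was seen for 12 of the 39, against 9.4% of all genes tested.

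The number of risen genes was 18, 14 and 13 when control replicate 1, 2 or 3 was left out, read against 12.8%, 9.26% and 9.85% of all genes tested. Without sgRNA1 KO replicate 3 and sgRNA2 KO replicate 1 together, 30 rose, against 23.3% of all genes tested, and the median was 0.90.

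**Figure D1:**
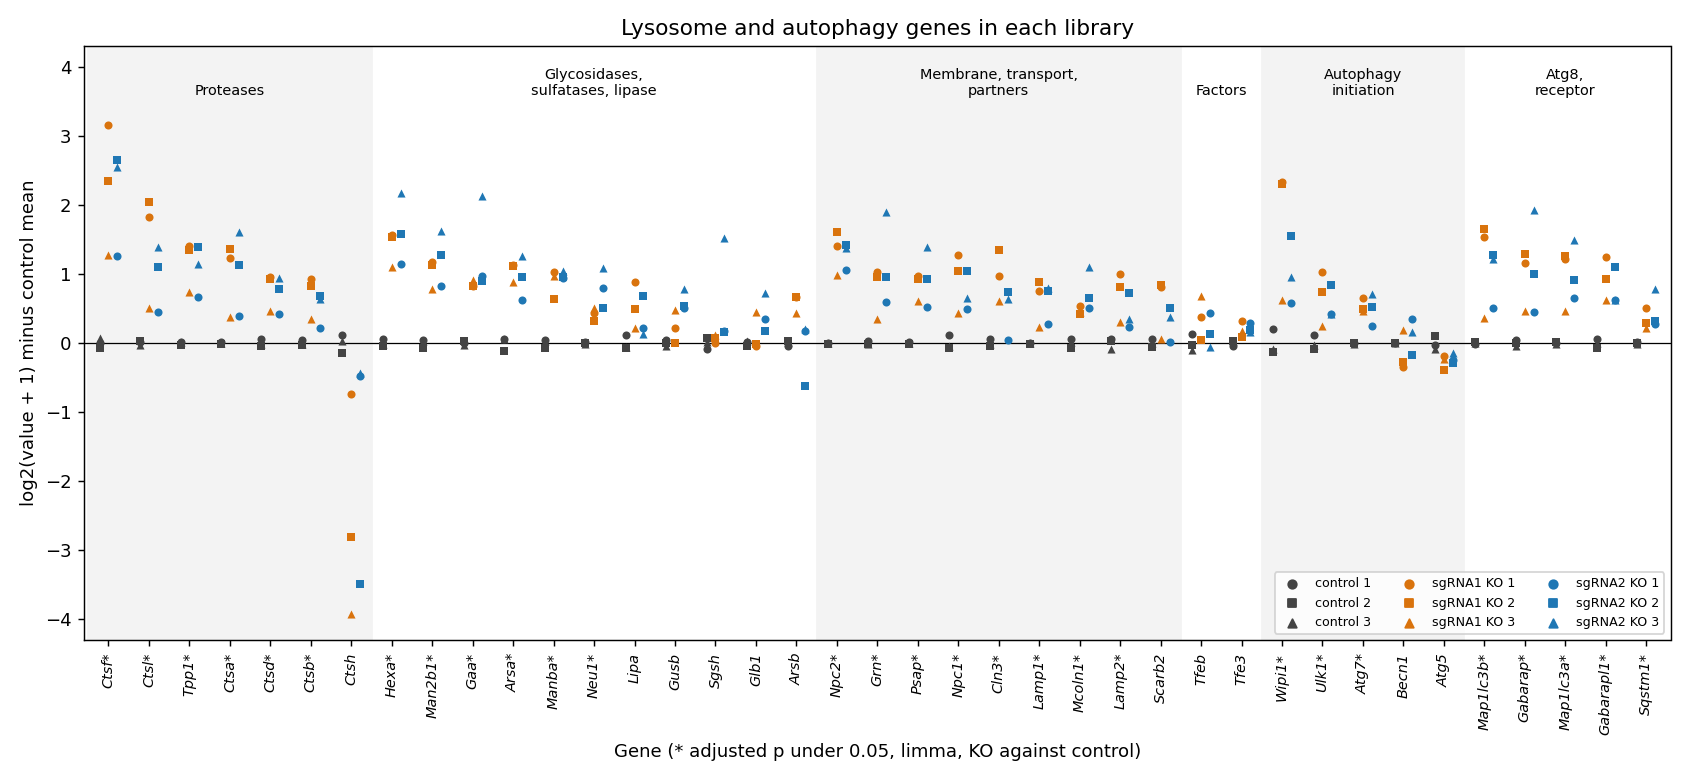
Difference of log2(normalized read count + 1) from the control mean for the 39 tested genes, grouped by role on the x axis, one mark for each library; colors stand for groups, marker shapes for replicate numbers, and an asterisk stands for an adjusted p under 0.05. Control points lie near 0, 28 genes carry an asterisk with KO points above 0, and Ctsh spreads down to -3.92.

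A promoter window of RefSeq (build GRCm38.p6, 250 bases before to 50 after the start site) was found for 35 of the 40 genes. The E-box core CACGTG, which reads the same on both strands, occurred in 11 of these 35 windows (31.4%), against 9.43% of the windows of genes in the table and 7.24% of all windows. The longer motif TCACGTG, which contains the core and was searched on both strands, occurred in 8 of 35, against 5.51% of the windows of genes in the table. Lamp1 had 4 cores, at 61, 45, 28 and 15 bases before the start site, and Mcoln1 had 2, at 71 and 45 bases before it. Ctsd had 2 as well, and the other 8 were Ctsf, Ctsl, Glb1, Gaa, Arsa, Sgsh, Atg5 and Atg7 with 1 each. Only the first listed window of each gene was searched. The Atg7 window (chr6:114670846-114671145) lies inside the gene (114643097 to 114860614, plus strand) and not at its annotated 5' end. The Ctsl window (chr13:64370471-64370770) likewise lies wholly inside its gene (64359337 to 64370890, minus strand), and so does its core. Distances are counted from the start site of the window. Of the 11 genes with the core, 8 rose, and of 23 tested genes with a window without it, 17 rose. Of all genes tested, with or without the core, 19.1% rose. The 4 windows below belong to the genes with a core that changed most among those described library by library, and the capitals mark the core. They are chr19:4854915-4855214 (plus strand, core 79 bases before the start site), chr13:64370471-64370770 (minus strand, 236 bases), chr11:119267713-119268012 (plus strand, 140 bases) and chr15:89477375-89477674 (minus strand, 16 bases).
Ctsf: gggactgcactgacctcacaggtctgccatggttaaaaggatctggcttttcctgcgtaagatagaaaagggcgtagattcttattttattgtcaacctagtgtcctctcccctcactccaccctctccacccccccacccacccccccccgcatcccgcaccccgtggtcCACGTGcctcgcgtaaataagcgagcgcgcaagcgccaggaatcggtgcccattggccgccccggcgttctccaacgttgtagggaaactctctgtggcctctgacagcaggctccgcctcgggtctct
Ctsl: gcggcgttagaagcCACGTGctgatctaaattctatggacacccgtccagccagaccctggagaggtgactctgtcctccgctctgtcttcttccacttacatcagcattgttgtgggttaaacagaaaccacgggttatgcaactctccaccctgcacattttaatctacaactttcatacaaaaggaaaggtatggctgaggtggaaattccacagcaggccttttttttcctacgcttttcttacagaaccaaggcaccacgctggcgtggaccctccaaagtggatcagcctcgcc
Gaa: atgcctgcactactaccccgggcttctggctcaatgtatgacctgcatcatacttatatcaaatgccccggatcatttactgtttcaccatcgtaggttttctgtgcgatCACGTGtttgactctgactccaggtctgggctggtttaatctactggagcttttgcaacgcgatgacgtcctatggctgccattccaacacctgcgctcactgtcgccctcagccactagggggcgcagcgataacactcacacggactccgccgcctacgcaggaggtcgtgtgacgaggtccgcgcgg
Arsa: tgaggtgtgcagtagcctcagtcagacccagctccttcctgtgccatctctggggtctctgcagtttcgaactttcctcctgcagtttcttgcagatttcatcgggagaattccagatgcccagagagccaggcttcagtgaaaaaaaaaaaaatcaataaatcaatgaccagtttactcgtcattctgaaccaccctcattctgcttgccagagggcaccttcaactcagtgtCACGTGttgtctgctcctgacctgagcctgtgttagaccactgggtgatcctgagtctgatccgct

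Of the 7 lysosomal protease genes tested, 6 rose (Ctsf, Ctsl, Tpp1, Ctsa, Ctsd and Ctsb) and Ctsh did not pass. For this and the role groups below, the background is that 19.1% of all genes tested rose and 20.2% fell. Ctsf, the gene of the cysteine protease cathepsin F (chromosome 19, 4855130 to 4860918 in mm10), was measured at 266, 254 and 280 normalized reads in control, 2376, 1361 and 647 with sgRNA1, and 639, 1677 and 1569 with sgRNA2. It had the largest log2 fold change of the 39 genes, 2.21 (SE 0.40, adjusted p = 0.00371 in limma), or 4.62-fold. All 6 KO values were at least 639, and no control exceeded 280.

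Tpp1 encodes tripeptidyl peptidase 1, which removes tripeptides from the ends of proteins. Its normalized read counts were 4463, 4320 and 4456 in control, 11696, 11232 and 7368 with sgRNA1, and 7003, 11625 and 9760 with sgRNA2. The groups did not overlap, with a log2 fold change of 1.12 (SE 0.18, adjusted p = 0.00253 in limma). Ctsd, for the aspartic protease cathepsin D, read 5827, 5418 and 5551 in control, 10847, 10688 and 7690 with sgRNA1, and 7463, 9645 and 10715 with sgRNA2. Its rise was smaller, at 0.75 on the log2 scale (SE 0.15, adjusted p = 0.00488 in limma), and again without overlap.

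Ctsl, for the cysteine protease cathepsin L, went from 2668, 2691 and 2586 in control to 9404, 10940 and 3771 with sgRNA1 and 3627, 5667 and 6930 with sgRNA2. The lowest KO values were those of sgRNA1 KO replicate 3 and sgRNA2 KO replicate 1, and both still exceeded every control (log2 fold change 1.22, SE 0.34, adjusted p = 0.0197 in limma). Ctsa encodes a carboxypeptidase that also protects the enzymes GLB1 and NEU1 in a complex. It had 3031, 2963 and 2982 normalized reads in control, 7044, 7670 and 3876 with sgRNA1, and 3932, 6564 and 9087 with sgRNA2. The rise of Ctsa was 1.02 on the log2 scale (SE 0.27, adjusted p = 0.0160 in limma). Exons of Ctsa overlap those of Pltp and Neurl2 on the opposite strand, and the sources used here do not say whether counting used strand. Without control replicate 1, 2 or 3 in turn, Ctsa (adjusted p = 0.0511, 0.0630 and 0.0594) and Ctsl (0.0601, 0.0685 and 0.0700) missed the threshold, and Ctsb missed it without control replicate 2 or 3 (0.0627 and 0.0580).

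Ctsh, the gene of the aminopeptidase cathepsin H, moved away from the other proteases but did not pass (log2 fold change -1.98, SE 0.82, adjusted p = 0.0784 in limma). Controls held 522, 437 and 491 normalized reads, the sgRNA1 libraries 288, 68 and 31, and the sgRNA2 libraries 345, 42 and 356. All KO values were under all controls, but they ranged from 31 to 356, with the widest log2 spread of the 39 genes (SD 1.60, n = 6). Without sgRNA2 KO replicate 1 or replicate 3 Ctsh passed as fallen (log2 fold change -2.28 and -2.29, adjusted p = 0.0464 and 0.0452 in limma), as it did with variance weights per group (-1.99, adjusted p = 0.00773).

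**Figure D2:**
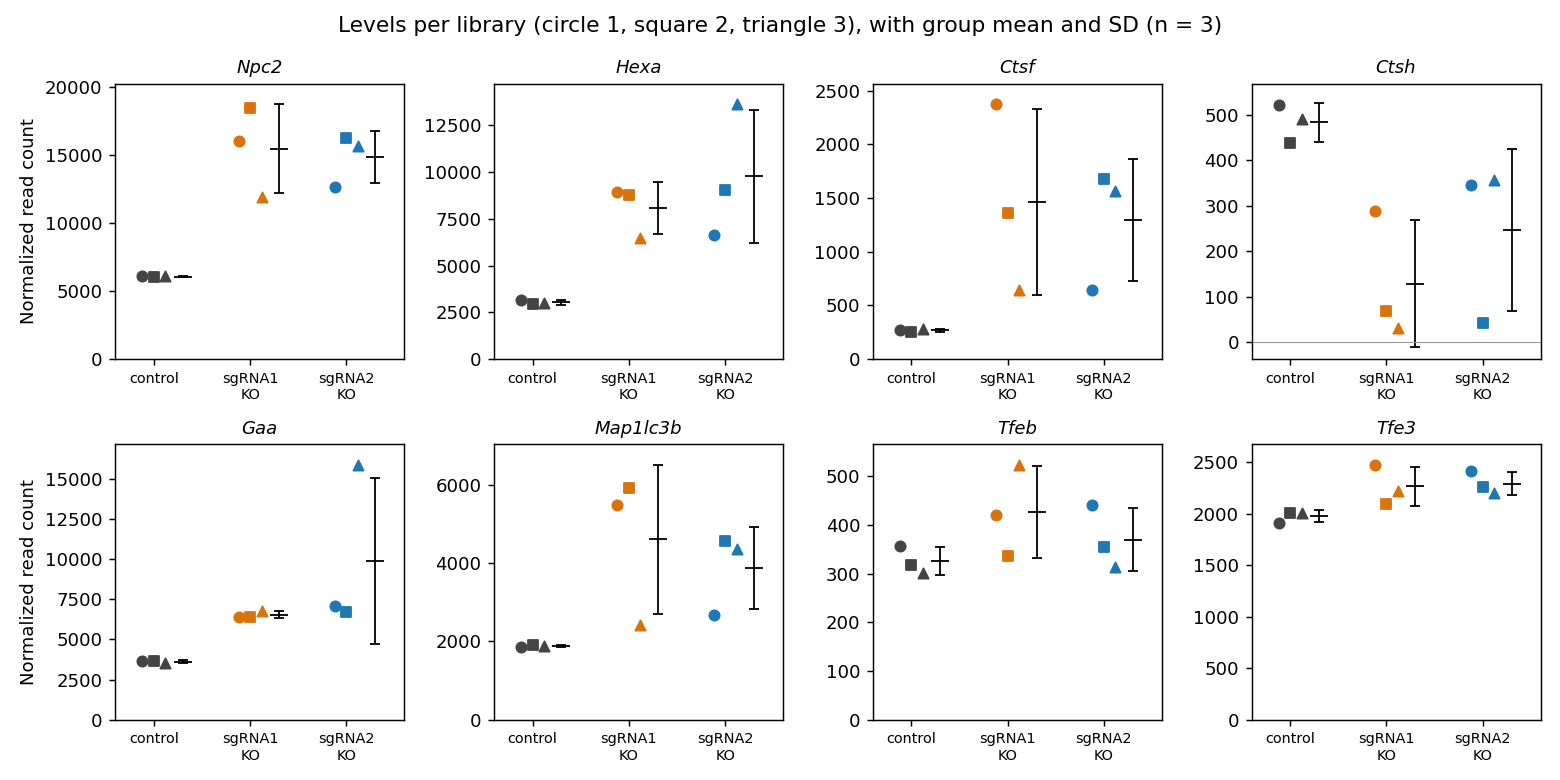
Normalized read count (y axis, from 0 except that the Ctsh panel extends below it for the SD bar) of 8 genes in control, sgRNA1 KO and sgRNA2 KO; points are libraries, horizontal ticks are means and bars are SD (n = 3). Npc2, Hexa, Ctsf, Gaa and Map1lc3b lie above every control in every KO library, Ctsh lies below, the KO points of Tfeb overlap the controls, and those of Tfe3 lie narrowly above them.

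Among the 11 genes of glycosidases, sulfatases and the acid lipase, 6 rose (Hexa, Man2b1, Gaa, Arsa, Manba and Neu1) and 5 did not pass. Hexa, the alpha subunit gene of beta-hexosaminidase, which degrades ganglioside GM2, lies on chromosome 9 from 59539540 to 59565109. It measured 3160, 2927 and 2989 in control, 8959, 8779 and 6466 with sgRNA1, and 6655, 9022 and 13646 with sgRNA2. The lowest KO value, 6466, was above every control, and Hexa rose by 1.51 on the log2 scale (SE 0.21, adjusted p = 0.00128 in limma), or 2.86-fold.

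Gaa encodes acid alpha-glucosidase, which digests glycogen in the lysosome. Its values were 3632, 3680 and 3532 in control, 6398, 6404 and 6779 with sgRNA1, and 7104, 6732 and 15869 with sgRNA2. The 5 other KO libraries sat within a narrow band, while sgRNA2 KO replicate 3 stood at 2.23 times the next highest. Gaa rose by 1.09 on the log2 scale (SE 0.27, adjusted p = 0.0119 in limma), and it missed without control replicate 3 (adjusted p = 0.0505).

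Man2b1, for lysosomal alpha-mannosidase, had 1689, 1553 and 1666 normalized reads in control, 3697, 3585 and 2818 with sgRNA1, and 2892, 3966 and 5014 with sgRNA2 (log2 fold change 1.14, SE 0.17, adjusted p = 0.00192 in limma). Arsa, for arylsulfatase A, which breaks down the myelin lipid sulfatide, had 1508, 1333 and 1497 in control, 3158, 3120 and 2677 with sgRNA1, and 2235, 2790 and 3462 with sgRNA2 (log2 fold change 1.0, SE 0.14, adjusted p = 0.00140 in limma). Neither gene overlapped between KO and control.

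Of the rest of this group, Manba (beta-mannosidase) rose by 0.93 on the log2 scale with a narrow spread among KO libraries (1016 to 1344, against 620 to 673 in control). Neu1 (sialidase) rose by 0.61 and missed without any 1 control library (adjusted p from 0.0529 to 0.0647 in limma). Lipa, the acid lipase gene, lay above every control in every KO library (1784 to 3018, against 1551 to 1773) but did not pass (log2 fold change 0.44, adjusted p = 0.0696 in limma). Gusb (0.42, adjusted p = 0.0594), Sgsh (0.34, 0.403), Glb1 (0.27, 0.220) and Arsb (0.25, 0.457) overlapped with control. For Sgsh, the heparan sulfate sulfamidase gene, 5 KO libraries held 402 to 457 normalized reads, near the controls at 381 to 422, and sgRNA2 KO replicate 3 held 1153. Exons of Sgsh overlap those of Card14 on the opposite strand.

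Of the 9 genes of membrane and transport proteins and enzyme partners, 8 rose (Npc2, Grn, Psap, Npc1, Cln3, Lamp1, Mcoln1 and Lamp2) and Scarb2 did not pass. Npc2 encodes the soluble protein that hands cholesterol to NPC1 for export from the lysosome, and it lies on chromosome 12 from 84754562 to 84773152. Its level was 6084, 6006 and 6063 in control, 15989, 18426 and 11925 with sgRNA1, and 12624, 16208 and 15682 with sgRNA2. The lowest KO value was 11925 and the highest control 6084. With a log2 fold change of 1.31 (SE 0.14) it had the smallest adjusted p of the 39 genes, 0.000502 in limma. A two-sided exact permutation test over the 84 ways to label 6 libraries as KO gave p = 0.0119, the smallest it can give. Other genes of the list reached the same p in this test, among them Tfe3 and Atg5, which did not pass in limma. Npc1, the membrane partner, rose by 0.82 (SE 0.19, adjusted p = 0.00952 in limma), from 9039 to 10242 in control to 12796 to 22890 in KO.

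Psap, which encodes the precursor of the saposins that help hydrolases reach lipids, was the most abundant gene of the set per length, with 11545 normalized reads per kilobase of exon in control. It rose from 31535 to 31958 normalized reads in control to 45438 to 83142 in KO (log2 fold change 0.89, SE 0.17, adjusted p = 0.00476 in limma). Per kilobase, Lamp1 (8101) and Gabarap (4104) followed in control, and Ctsf (52.9), Tfeb (57.4) and Cln3 (77.4) were lowest among the 39. In KO, the mean level of Ctsf was 273 per kilobase, above Tfeb (70.2) and Cln3 (133).

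Grn encodes progranulin, a secreted and lysosomal glycoprotein. Its values were 3672, 3562 and 3586 in control, 7385, 7023 and 4588 with sgRNA1, and 5427, 6978 and 13432 with sgRNA2. KO and control did not overlap, and sgRNA2 KO replicate 3 was 1.82 times the next highest (log2 fold change 0.96, SE 0.28, adjusted p = 0.0218 in limma). Lamp1, a heavily glycosylated protein of the lysosomal membrane, had 21655, 21577 and 21780 in control, 36609, 40123 and 25557 with sgRNA1, and 26261, 36586 and 37644 with sgRNA2. It rose by 0.62 on the log2 scale (SE 0.16, adjusted p = 0.0149 in limma). Mcoln1, the gene of the calcium channel TRPML1, had 1849, 1681 and 1795 in control, 2568, 2366 and 2431 with sgRNA1, and 2512, 2781 and 3806 with sgRNA2 (log2 fold change 0.61, SE 0.15, adjusted p = 0.0127 in limma). Every KO library exceeded every control for Lamp1 and for Mcoln1.

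Cln3, for the membrane protein lost in a form of Batten disease, passed (log2 fold change 0.73, adjusted p = 0.0363 in limma) although sgRNA2 KO replicate 1, at 463, lay within the control range of 434 to 466. Lamp2 rose by 0.57 (adjusted p = 0.0279). Scarb2, the sorting receptor of glucocerebrosidase, stood at 0.44 (adjusted p = 0.0977) and passed without sgRNA1 KO replicate 3 (0.51, adjusted p = 0.0497) or sgRNA2 KO replicate 1 (0.52, 0.0449). With control replicate 1, 2 or 3 left out, Grn (adjusted p = 0.0629, 0.0774 and 0.0734), Lamp1 (0.0514, 0.0619 and 0.0577), Lamp2 (0.0692, 0.0862 and 0.105) and Cln3 (0.0864, 0.117 and 0.109) missed in limma, as did Mcoln1 without control replicate 2 or 3 (0.0634 and 0.0510). Cln3 also missed without sgRNA1 KO replicate 1 or sgRNA2 KO replicate 2 (0.0636 each), and Lamp2 without sgRNA2 KO replicate 2 (0.0563).

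The 2 transcription factor genes did not pass. Tfeb was measured at 357, 317 and 302 in control, 421, 335 and 523 with sgRNA1, and 440, 355 and 313 with sgRNA2, and the groups overlapped (log2 fold change 0.27, SE 0.18, adjusted p = 0.258 in limma). Tfe3 was measured at 1912, 2009 and 2009 in control, 2473, 2096 and 2220 with sgRNA1, and 2412, 2253 and 2200 with sgRNA2. All KO values of Tfe3 lay above all controls, by a log2 fold change of 0.20 (SE 0.09, adjusted p = 0.108 in limma). Tfe3 passed with quantile normalization (0.33, adjusted p = 0.0220) and with variance weights per group (0.20, adjusted p = 0.0379). RNA levels do not show where in the cell these factors were.

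Of the 5 genes of autophagy initiation and conjugation, 3 rose (Wipi1, Ulk1 and Atg7). Wipi1, which binds the lipid PI3P on the growing autophagosome membrane, had 713, 563 and 583 normalized reads in control, 3102, 3051 and 946 with sgRNA1, and 920, 1801 and 1195 with sgRNA2. The KO libraries divided widely, highest in sgRNA1 KO replicates 1 and 2, and the lowest KO value, 920, was above every control (log2 fold change 1.39, SE 0.42, adjusted p = 0.0258 in limma). Ulk1, the kinase gene that starts autophagy, rose by 0.62 (adjusted p = 0.0198), and Atg7, the enzyme gene that activates the Atg8 proteins, rose by 0.51 (adjusted p = 0.00821), from 1462 to 1478 in control to 1746 to 2398 in KO. Becn1, a subunit of the lipid kinase complex that makes PI3P, stood at -0.01 (SE 0.16, adjusted p = 0.949). Atg5, part of the conjugation machinery, lay below every control in every KO library (1405 to 1671, against 1736 to 1978) without passing (log2 fold change -0.25, SE 0.10, adjusted p = 0.0700 in limma). Atg5 passed as fallen without sgRNA2 KO replicate 3 (-0.27, adjusted p = 0.0292) and with variance weights per group (-0.25, 0.0398). Wipi1 missed without control replicate 1, 2 or 3 (adjusted p = 0.0584, 0.0946 and 0.0872), and Ulk1 without control replicate 2 or 3 (0.0867 and 0.0753).

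Of the Atg8 family, 4 chosen genes (Map1lc3a, Map1lc3b, Gabarap and Gabarapl1) and the receptor gene Sqstm1 rose. Gabarapl2, a family gene outside the chosen 40, did not pass (521 to 581 in control, 567 to 685 in KO, log2 fold change 0.21, adjusted p = 0.178 in limma). Map1lc3b, the gene of LC3B, the usual marker protein of autophagosomes, was at 1865, 1903 and 1873 in control, 5471, 5915 and 2427 with sgRNA1, and 2677, 4566 and 4368 with sgRNA2. Map1lc3a, for LC3A, was at 608, 619 and 602 in control, 1414, 1462 and 843 with sgRNA1, and 962, 1153 and 1710 with sgRNA2. Their log2 fold changes were 1.09 (SE 0.28, adjusted p = 0.0139) and 1.0 (SE 0.22, adjusted p = 0.00720 in limma), and no KO library overlapped a control.

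Gabarap, of the other Atg8 branch, was at 7836, 7536 and 7333 in control, 16897, 18575 and 10426 with sgRNA1, and 10313, 15075 and 28690 with sgRNA2. The value of 28690 in sgRNA2 KO replicate 3 was 1.54 times the next highest, and all KO values exceeded the controls (log2 fold change 1.05, SE 0.29, adjusted p = 0.0188 in limma). Gabarapl1 rose by 0.86 (SE 0.16, adjusted p = 0.00409). Sqstm1 encodes p62, which ties ubiquitin-marked cargo to the Atg8 proteins. It was at 8694, 8578 and 8519 in control, 12214, 10485 and 10045 with sgRNA1, and 10395, 10694 and 14823 with sgRNA2, the smallest rise among the 28 (log2 fold change 0.40, SE 0.13, adjusted p = 0.0347 in limma). Gabarap missed without control replicate 1, 2 or 3 (adjusted p = 0.0548, 0.0690 and 0.0696), and Map1lc3b without control replicate 2 or 3 (0.0550 and 0.0544). Sqstm1 missed without control replicate 1, 2 or 3 (0.0914, 0.111 and 0.111), sgRNA1 KO replicate 1 (0.0604) or sgRNA2 KO replicate 2 (0.0529), and with the replicate block (0.0573).

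The shift of the 39 genes differed between KO libraries. Their median log2 ratio to the control mean was 0.97 in sgRNA1 KO replicate 1, 0.84 in replicate 2 and 0.46 in replicate 3, and 0.45, 0.79 and 0.94 in sgRNA2 KO replicates 1, 2 and 3. In the controls it was between -0.02 and 0.03, and for all genes tested it was between -0.02 and 0.01 in every library. The 2 smaller values belonged to the KO libraries nearest the controls, although 37 of 39 genes lay above the control mean in each of them. Of the 39 genes, 19 were highest in sgRNA2 KO replicate 3 among the KO libraries, 12 in sgRNA1 KO replicate 1 and 6 in sgRNA1 KO replicate 2. Gene groups differed in this: proteases had their highest median in sgRNA1 KO replicate 2 (1.35, against 1.15 in sgRNA2 KO replicate 3), and glycosidases and sulfatases in sgRNA2 KO replicate 3 (1.09, with 0.50 to 0.82 elsewhere in KO).

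**Figure D3:**
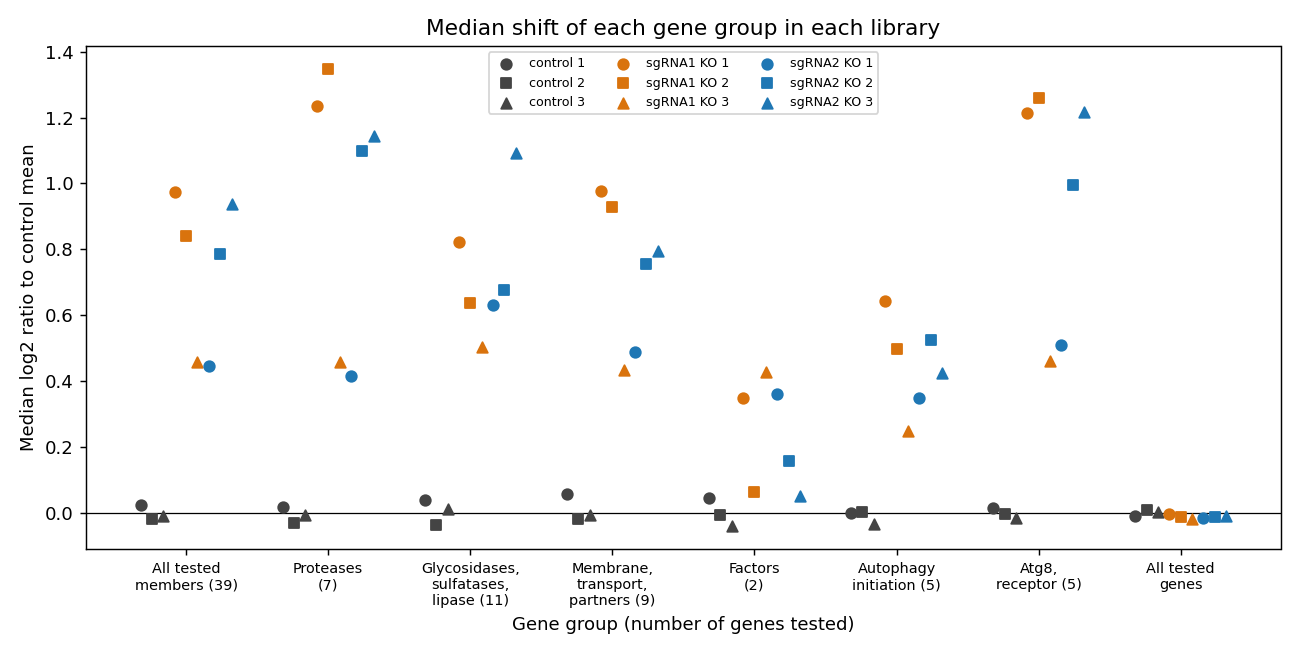
Median log2 ratio to the control mean (y axis) of all 39 tested genes, of each role group and of all genes tested (x axis), one mark for each library; colors stand for groups and marker shapes for replicate numbers. For the 39 genes the KO libraries lie between 0.45 and 0.97, and for all genes tested every library lies between -0.02 and 0.01.

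Each guide was compared with the same 3 controls in a fit with 3 groups. With sgRNA1, 24 of the 39 genes rose and 0 fell, while 36% of all genes tested were called, 17.1% risen and 18.9% fallen. With sgRNA2, 20 rose and 0 fell, while 22.1% of all genes tested were called, 11.4% risen and 10.7% fallen. Every sgRNA1 library lay above every control for 31 of the 39 (28.5% of all genes tested), and every sgRNA2 library for 32 (26.3%). Hexa (log2 fold change 1.40 with sgRNA1 and 1.63 with sgRNA2), Npc2 (1.33 and 1.29), Tpp1 (1.16 and 1.07) and Ctsf (2.26 and 2.15) passed with each guide. For sgRNA1 the number called was 12, 6 and 8 without control replicate 1, 2 or 3, and 9 and 8 without sgRNA1 KO replicate 1 or 2. In these fits 17.8%, 8.01%, 9.74%, 12.3% and 14.8% of all genes tested were called. For sgRNA2 it was 8, 4 and 5 without control replicate 1, 2 or 3, and 10 and 13 without sgRNA2 KO replicate 2 or 3, with 8.34%, 4.06%, 4.35%, 9.04% and 18.7% of all genes tested called.

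Between the guides, limma called 0 of the 39 genes and 0 of all genes tested (0%). At an unadjusted p under 0.05 there were 3 of the 39 (Arsb, Gusb and Neu1), 7.69%, against 474 of all genes tested, 2.99%. Arsb, the arylsulfatase B gene, averaged 962 with sgRNA1 and 622 with sgRNA2, a log2 difference of 0.67 (SE 0.22, adjusted p = 0.778 in limma). Gusb (beta-glucuronidase, -0.37, SE 0.15) and Neu1 (-0.38, SE 0.15) were higher with sgRNA2, each with an adjusted p of 0.778. The differences between guides ran from -1.02 (Ctsh) to 0.73 (Wipi1), with a median of 0.02.

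The other genes of the pathway, 145 tested genes in 8 lists, had 65 risen and 3 fallen in KO against control, with a median log2 fold change of 0.31 (19.1% and 20.2% among all genes tested, median -0.01). These lists, too, were chosen with earlier results of these data known. Without control replicate 1, 2 or 3, the risen numbered 45, 35 and 37 and the fallen 1. In these fits 12.8%, 9.26% and 9.85% of all genes tested rose. Of other lysosomal hydrolases and activators, 17 of 27 rose and 0 fell. Gm2a, the activator that presents GM2 to the hexosaminidase, went from 4984, 4047 and 4279 in control to 23438, 19873 and 8060 with sgRNA1 and 8771, 17003 and 14064 with sgRNA2 (log2 fold change 1.67, SE 0.33, adjusted p = 0.00497 in limma). The protease gene Ctso rose by 1.70 (SE 0.19), from 1078 to 1356 in control to 2677 to 5068 in KO. Other lysosomal membrane proteins had 7 of 14 risen, led by the cystine exporter gene Ctns (log2 fold change 1.76, SE 0.23) and the cation channel gene Tpcn1 (1.27, SE 0.23).

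The V-ATPase, the proton pump that acidifies the lysosome, had 8 of 16 subunit genes risen, 0 fallen and a median of 0.41. Atp6v0d1 rose by 0.81 (SE 0.22) and Atp6v1f by 0.75 (SE 0.13). The median of the 16 was highest, at 0.83, in sgRNA2 KO replicate 3 and lay between 0.26 and 0.39 in the other 5 KO libraries. Genes that sort enzymes to the lysosome were near the background, with 2 of 11 risen (Gnptg, log2 fold change 0.82, and Sort1, 0.44) and a median of 0.05. Without control replicate 1, 2 or 3, Atp6v0d1 missed (adjusted p from 0.0588 to 0.0680 in limma), and Sort1 missed without control replicate 2 or 3 (0.0630 and 0.0575).

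Other autophagy machinery had 11 of 27 risen and 1 fallen. Atg14, of the PI3P kinase complex, rose by 1.23 (SE 0.24), from 493 to 572 in control to 893 to 1797 in KO, and Tecpr1 rose by 1.19 (SE 0.13). The fallen gene was Vmp1, an endoplasmic reticulum protein needed to form autophagosomes (log2 fold change -0.64, SE 0.22, adjusted p = 0.0420 in limma). Vmp1 missed when any library other than sgRNA2 KO replicate 3 was left out (adjusted p from 0.0521 to 0.139) and with quantile normalization (0.0636), and sgRNA2 KO replicate 3 (4359) lay within the control range of 3915 to 4365. Autophagy receptors had 5 of 11 risen: Optn, the optineurin gene, went from 280 to 322 in control to 840 to 1361 in KO (log2 fold change 1.93, SE 0.17), and Calcoco1 from 1166 to 1418 to 2747 to 8163 (1.89, SE 0.35). Fusion genes had 4 of 10 risen, Snap29 (0.54) and Vps39 (0.52) among them, and both missed without control replicate 2 (adjusted p = 0.0503 and 0.0554 in limma).

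Of the genes of mTORC1 and nutrient sensing at the lysosome, 11 of 29 rose and 2 fell. Sesn3, a sestrin gene whose product restrains mTORC1, went from 9881, 7141 and 7840 in control to 75478, 53722 and 22713 with sgRNA1 and 28328, 59348 and 27852 with sgRNA2 (log2 fold change 2.30, SE 0.37, adjusted p = 0.00241 in limma). Sesn1 rose by 0.99 (SE 0.30) but missed without control replicate 1, 2 or 3 (adjusted p = 0.0573, 0.102 and 0.0884) or sgRNA2 KO replicate 2 (0.0537). Seh1l, a subunit of the GATOR2 complex and of the nuclear pore, fell (log2 fold change -0.94, SE 0.17), and Tsc2, a subunit of the complex that restrains mTORC1, fell by 0.33 (SE 0.09) from 4458 to 4577 in control to 3361 to 3924 in KO. Tsc2 missed without control replicate 1, 2 or 3 (adjusted p = 0.0538, 0.0634 and 0.0708) and with quantile normalization (0.0501). The median of this list was 0.21.

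**Figure D4:**
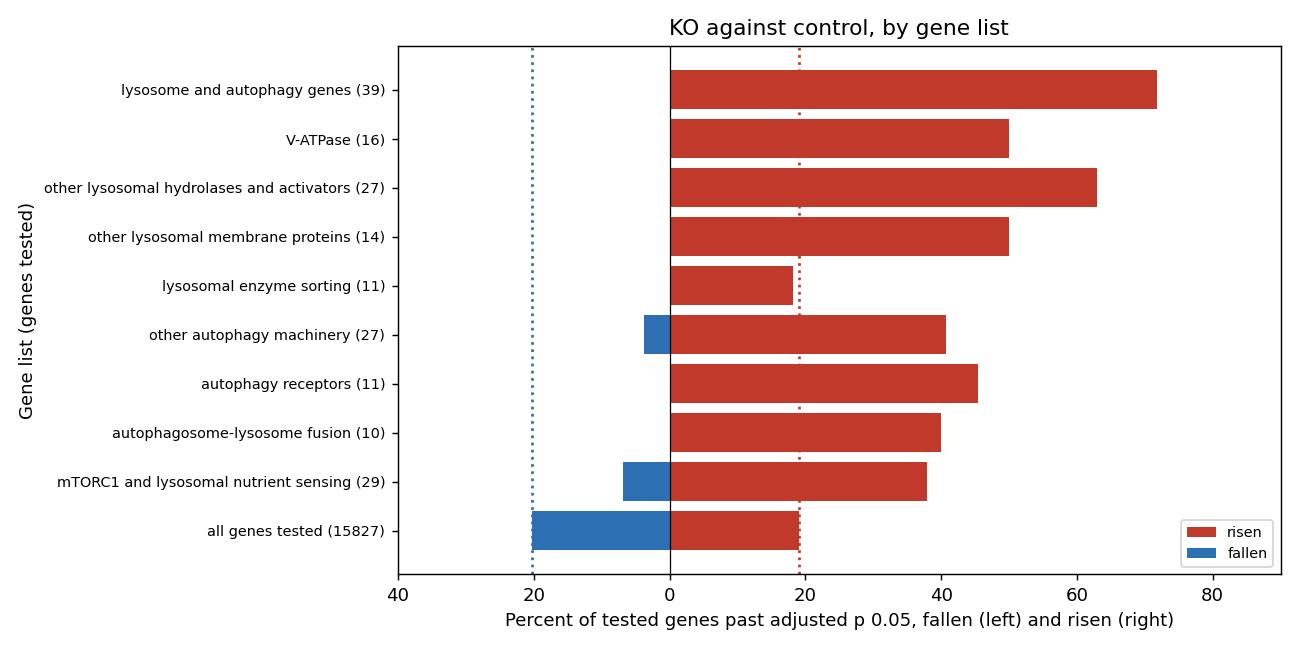
Percent of tested genes (x axis) that rose (right) or fell (left) past an adjusted p of 0.05 in KO against control, for each gene list (y axis, number of genes tested in parentheses); dotted lines mark the shares of all genes tested, 19.1% and 20.2%. The chosen genes stand at 71.8% risen, and the list of lysosomal enzyme sorting is the only one whose risen bar ends short of the dotted line.

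Lysosomal genes are also abundant in cell types other than tumor stem cells. Of 12 microglia and macrophage markers, 6 were among the genes of the table, and their summed normalized reads were 89 to 117 in control and 77 to 96 in KO, with Csf1r at 10 or fewer and Ptprc at 4 or fewer per library. Astrocyte markers (7 of 7) summed to 60279 to 64666 in control and 57577 to 166598 in KO. Their highest sums, 166598 and 127293, were in sgRNA1 KO replicates 1 and 2. The sums of sgRNA1 KO replicate 3 (58495) and sgRNA2 KO replicate 1 (57577) lay below every control. Of the 7 astrocyte markers, 2 rose, 0 fell and 5 did not pass, against 19.1% risen and 20.2% fallen among all genes tested. Neuron markers (6 of 7), mostly Map2, summed to 42752 to 44054 in control and 47474 to 125766 in KO. The part of these markers in the rise of lysosome genes was not tested. Endothelial markers (6 of 8) summed to 710 to 734 in control and 220 to 376 in KO, and pericyte and fibroblast markers (4 of 7) to 100 to 118 and 20 to 39. Flt1 was the highest of the 6 endothelial markers, which did not move together. Of these 6, 2 fell and 0 rose, against 20.2% and 19.1% of all genes tested, and 3 had a log2 fold change above 0 (median 0.14). In bulk RNA, a change in the share of cells and a change per cell cannot be told apart.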

How the data were processed

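Poly(A) RNA of 9 BTSC libraries was measured. The submitters' processing notes name the aligner STAR 2.4.1d, the counter featureCounts, DESeq2 and the build mm10. The annotation release and any use of strand are not given in the sources used here. The deposited table holds a score per gene and library: read counts that the authors scaled by library and rounded to whole numbers, as inferred from regular gaps in its values. Raw counts were not used here, so limma 3.58.1 (R 4.3.3, mean-variance trend, two-sided, Benjamini-Hochberg over 15827 genes) was run on log2(value + 1), which understates changes of low genes. KO against control was a fit with 2 groups, and the guides used 1 fit with 3 groups. The pipeline was tested on simulated counts with the same dispersion in all groups, so that test does not cover the wider spread in KO. Positions and exon lengths came from GENCODE M21, which held 21823 (99.7%) of the genes.

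The members and lists were chosen with earlier results of these data known. Values are given in every library for the 14 largest non-overlapping changes that passed, for Lamp1, Tfeb, Tfe3, Sqstm1, Map1lc3b, Mcoln1 and Ctsd, and for the 3 genes with the largest SD among KO libraries. From each other list, up to 2 genes that rose and 2 that fell are named. Exons of 15 of the 40 genes overlap another gene of the table. Alternatives were pseudocounts of 0.5 and 5, no filter, a mean of at least 50, rescaling by median-of-ratios size factors, quantile normalization, a replicate block, variance weights by group, the 6 libraries compared only, and libraries left out. The result of a cell type marker list is not reported here. Figures used Python 3.11.15 and matplotlib 3.10.9.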

Additional observations from a re-analysis of the deposited data

Results flagged for a closer look

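Among the 21 genes given in every library, 4 had a highest KO value that stood apart from the other 5 KO libraries, by a gap wide enough against the group's range to pass Dixon's 95% limit for 6 samples, and all 4 were in sgRNA2 KO replicate 3. They were Gaa (15869, gap 0.925 of the range), Mcoln1 (3806, 0.712), Grn (13432, 0.684) and Hexa (13646, 0.644). This limit marks about 1 in 20 groups of values that are unselected and independent. That rate cannot be applied here, because the 21 genes were picked partly for large changes and wide spread in these data, and the 4 share a library. Without sgRNA2 KO replicate 3, 29 of the 39 genes rose, against 23% of all genes tested (19.1% with it), with a median log2 fold change of 0.71.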

How the results depend on the processing

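The 28 risen genes stayed at 28 with pseudocounts of 0.5 and 5, no filter, a mean of at least 50 and median-of-ratios rescaling, and each of these called the same genes. Quantile normalization gave 31 (adding Gusb, Lipa and Tfe3) and variance weights per group 32 (adding Gusb, Lipa, Scarb2 and Tfe3), with 2 fallen (Atg5 and Ctsh). Leaving out each library in turn gave 13 to 29 risen and 0 to 2 fallen genes, and 2777 to 7597 genes called in all, against 6227. Leaving out both KO libraries nearest the controls gave 30 risen genes and 7649 called in all. For sgRNA1 the leave-one-out counts ran from 6 (8.01% of all genes tested called) to 28 (42.6%), against 24 (36%). For sgRNA2 they ran from 4 (4.06%) to 28 (34.6%), against 20 (22.1%). Variance weights raised the calls over all genes to 8868. The median of the 39 genes lay between 0.67 and 0.90 in all alternatives. Becn1, not called anywhere, had a log2 fold change of -0.01, which was 0.095 with quantile normalization, 0.053, 0.04 and 0.02 without sgRNA1 KO replicate 1, sgRNA1 KO replicate 2 or sgRNA2 KO replicate 2, and -0.16 without both KO libraries nearest the controls; the cause was not tested.

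Deviations of same-numbered libraries correlated between -0.35 and 0.33, and not every library correlated best with its own number. These values showed no pairing by replicate number, but with 3 libraries in each group they cannot exclude it. With the replicate block, 27 genes rose (Sqstm1 was lost) and 5786 genes were called.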
